A study of Bos taurus with 2 samples.

Results

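A set of 10 genes of the contractile apparatus and the basal identity of mammary myoepithelial cells was followed in the RNA of 2 fractions of bovine milk whey. They are ACTA2, ACTG2, MYH11, MYL9, MYLK, TAGLN, CNN1, OXTR, TP63 and ITGA6. The members were all non-control probes whose gene name on the array was 1 of these 10 symbols, with TP63 also accepted under its older name TP73L. This gave 22 probes for the 10 genes, out of 43652 probes and 15862 named genes on the array. The exosome fraction was the pellet of Holstein raw milk whey spun at 10000 g for 90 min at 4 °C and washed 2 times in buffer by the same spin. The supernatant fraction was the liquid above that pellet. For each fraction the RNA of 3 preparations was mixed equally, 100 ng was labelled with the green dye Cy3, and the pool was hybridised to 1 Agilent bovine array of 60-base probes. That speed, taken from the labels, is low for collecting small vesicles, so what each fraction held is uncertain. With 1 pooled array per fraction there were no replicates, no test was possible, and every difference is between these 2 arrays.

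Myoepithelial cells form a contractile basket around the secretory alveoli and ducts of the mammary gland. Oxytocin released at milking binds its receptor on these cells, calcium rises, myosin light chain kinase is switched on, and the phosphorylated light chain lets smooth muscle myosin pull on actin filaments, which ejects the milk. They sit on the basement membrane through laminin-binding integrins and carry basal transcription factors, whereas caseins, whey proteins and milk fat come from the luminal cells they enclose. Most of the contractile genes are shared with vascular smooth muscle, so none of those marks myoepithelial cells alone.

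A gene counted as detected where the scanner software called any of its probes well above background. Of the 10 genes, 8 were detected on the exosome array against 3 on the supernatant array. The share over all named genes was 69.2% on the exosome array against 22.8% on the supernatant array. ACTA2, MYH11 and MYLK were detected on both arrays (21.8% of all named genes). ACTG2, MYL9, TAGLN, OXTR and ITGA6 were detected on the exosome array alone (47.4%), none on the supernatant array alone (1.02%), and CNN1 and TP63 on neither (29.8%). These shares were near those of all named genes. In pooled RNA of whey fractions, fewer source cells of a type, less RNA per cell and an unequal share of that RNA in each fraction cannot be told apart.

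The arrays differed widely in brightness. The well-above-background share of all probes was 58.5% on the exosome array against 13.1% on the supernatant array, and the median of 3391 genes measured on both was 3.50 higher on the log2 scale, or 11.3-fold brighter, on the exosome array before scaling. Differences are therefore given on the unscaled signals and also against that median gene, a value that no constant scaling of an array can change. The lowest signal called well above background was 11.3 on the exosome array against 8.75 on the supernatant array. The call is made spot by spot, so a signal slightly above that limit can still lack it. The error printed beside a signal is the scanner software's own error of that spot, which covers no biological spread. Among 11 probes printed on 4 spots and measured on both arrays, the log2 difference had a spot-to-spot SD of 0.20. Different probes of 1 gene disagreed far more, with an SD of 1.73 over 529 genes.

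The sequences below are array probes for genes on which the results turn, with the positions that the array files give in build Btau_3.1. Whether a probe lies in a coding exon or an untranslated region was not analysed here, and for several probes only the first 30 bases are shown.

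The first pair shows why the 2 MYLK probes count as 1 measurement: they overlap by 53 of 60 bases, at chr1:69082127-69082186 and chr1:69082120-69082179, both on the minus strand. Capitals mark the shared bases within the first 30 shown.
MYLK probe at 3901, first 30 bases: ggaagagTGAAACAAAGCCAGCGAGAAGCA
MYLK probe at 3908, first 30 bases: TGAAACAAAGCCAGCGAGAAGCAGTTTCTA

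The other detected probes shown are ACTA2 at chr26:11078949-11079008 and MYH11 at chr25:15183845-15183904, both on the minus strand, and on the plus strand OXTR at chr22:18294811-18294870, MYL9 at chr13:66241564-66241623, TAGLN at chr15:26326451-26326510 and ITGA6 at chr2:25016229-25016288.
ACTA2 probe at 1204, first 30 bases: actccctgctctcttgtctgtctctagtac
MYH11 probe at 6062, first 30 bases: tgtctaaatccattttcaaactccaaacat
OXTR probe at 1723, first 30 bases: gtatagtgctgtatagagtactgtactgaa
MYL9 probe at 1078, first 30 bases: tgcaagagggcggacgttcatcttggggag
TAGLN probe at 975, first 30 bases: aagtccactgtcctccttggaagcagatgc
ITGA6 probe at 1181: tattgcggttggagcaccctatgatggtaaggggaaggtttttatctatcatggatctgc

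**Figure D1:**
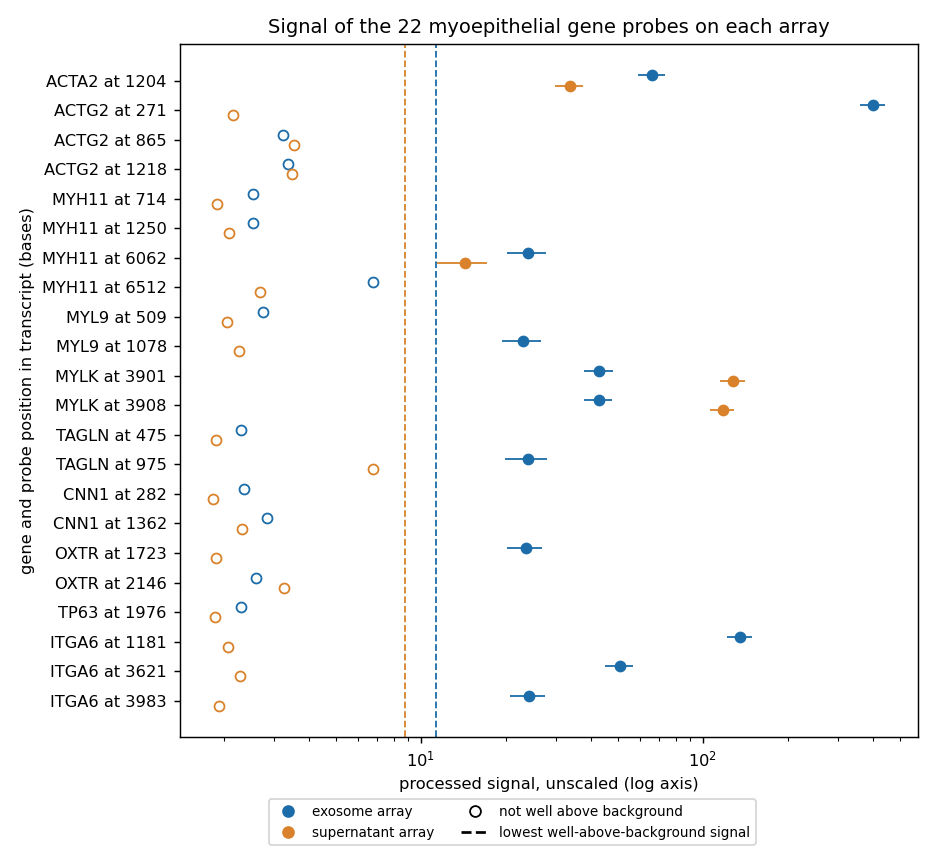
Processed signal of each of the 22 probes (log axis, unscaled) on the exosome array (blue) and the supernatant array (orange), by gene and position of the probe in its transcript. Filled points were well above background and carry the scanner error, open points were not, and dashed lines mark the lowest signal called well above background on each array. Both MYLK probes lie higher on the supernatant array, while every other detected probe lies higher on the exosome array.

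The actins of smooth muscle were read by 4 member probes. ACTA2, alpha smooth muscle actin and the protein most used to stain myoepithelial cells, has 1 probe under its own name. Its signal was 66.0 ± 7.05 on the exosome array against 33.8 ± 3.93 on the supernatant array, so both arrays measured it and the exosome array was 1.96-fold brighter before scaling. That log2 difference of 0.97, with a scanner error of 0.23, was small beside the 3.50 of the median gene. Relative to the median gene ACTA2 lay at -2.53 on the log2 scale, and 16.4% of the genes measured on both lay as low or lower. A further probe, outside the member rule, is described on the array as part of an ACTA2 protein. That probe read 2.58 on the exosome array against 2.70 on the supernatant array, well above background on neither.

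ACTG2, the gamma actin of visceral smooth muscle, read 401 on the exosome array at position 271, against 2.16 on the supernatant array, which was not well above background. The difference was at least 45.8-fold before scaling. It was at least 4.05-fold relative to the median gene, and at least 1.05-fold with both arrays scaled to the 75th percentile of the probes detected on both. The other ACTG2 probes were well above background on neither array, with 3.24 on the exosome array against 3.55 on the supernatant array at position 865, and 3.37 on the exosome array against 3.49 on the supernatant array at position 1218. The ACTG2 call therefore rested on 1 of 3 probes. That probe shares a stretch with a probe for ACTB, the cytoplasmic beta actin: 27 of 29 overlapping bases are identical. The ACTB probe had a signal of 1003 on the exosome array against 4.92 on the supernatant array, where it was not well above background. The part of ACTB RNA, or of other actin RNA, in the ACTG2 signal was not tested. Among all other named probes searched for an overlap of at least 25 bases at 85% identity or more, no further partner of a member was found apart from the MYLK pair. That search compared probes with probes, so a likeness to other transcripts away from their own probes could not be seen.

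The motor itself showed a mixed picture along its length. MYH11, the smooth muscle myosin heavy chain, has 4 probes, of which the one at position 6062 was detected. It read 24.0 ± 3.82 on the exosome array against 14.3 ± 2.84 on the supernatant array, a log2 difference of 0.75 with a scanner error of 0.37. The exosome array was thus 1.68-fold brighter before scaling, and MYH11 lay at -2.75 relative to the median gene. The other MYH11 probes were below detection on both arrays: 2.53 on the exosome array against 1.89 on the supernatant array at position 714, 2.54 on the exosome array against 2.08 on the supernatant array at position 1250, and 6.74 on the exosome array against 2.68 on the supernatant array at position 6512. The detected probe and its nearest neighbour in the transcript thus gave different calls.

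MYL9, the regulatory light chain that the kinase phosphorylates in smooth muscle, was detected by 1 of 2 probes on the exosome array. At position 1078 its signal was 23.0 on the exosome array against 2.26 on the supernatant array, at least 2.63-fold brighter on the exosome array before scaling. The probe at position 509 read 2.75 on the exosome array against 2.06 on the supernatant array and was detected on neither.

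MYLK, the calcium-activated kinase that starts contraction, was the member furthest to the supernatant side. Its probe at position 3901 read 42.8 on the exosome array against 128 on the supernatant array, and its probe at position 3908 read 42.6 on the exosome array against 117 on the supernatant array. The log2 differences were -1.58 and -1.46, each with a scanner error of 0.22, and averaged -1.52, so MYLK was 2.86-fold brighter on the supernatant array even before scaling. Only 6.66% of the genes measured on both were brighter on the supernatant array before scaling, and 1.33% by at least 2-fold. Relative to the median gene MYLK lay at -5.02, and 0.737% of the genes lay at least as far to that side, MYLK included. Because the 2 probes are nearly the same sequence, their closeness shows the repeatability of 1 stretch of the transcript and says nothing of the rest of it. Another probe, outside the member rule, is described on the array as a predicted smooth muscle myosin light chain kinase. That probe read 10.9 on the exosome array against 3.70 on the supernatant array, well above background on neither.

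**Figure D2:**
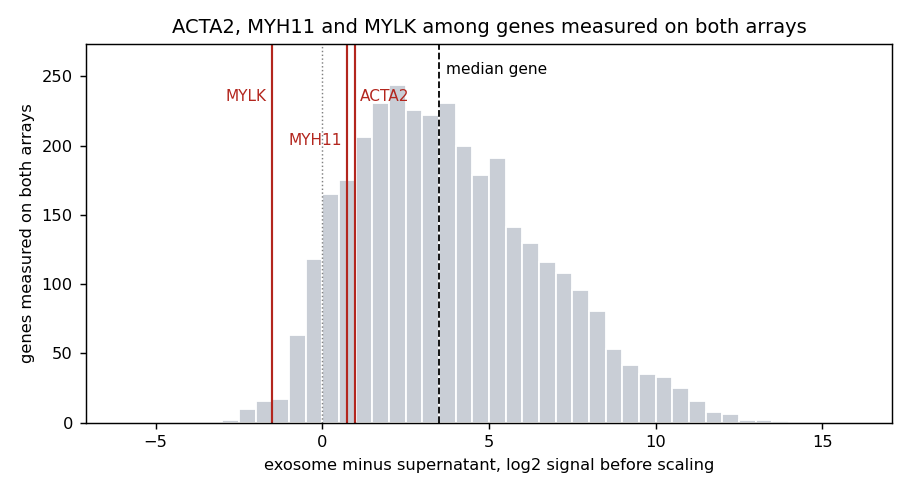
Number of the 3391 genes measured on both arrays (vertical axis) by their log2 difference, exosome minus supernatant, before scaling (bins of 0.5). Red lines mark MYLK at -1.52, MYH11 at 0.75 and ACTA2 at 0.97, the dashed line marks the median gene at 3.50 and the dotted line marks 0; all 3 members lie left of the median gene.

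All 3 members measured on both arrays lay at least 2-fold below the median gene, with a median of -2.75, and 36.8% of all genes measured on both did so. None lay at least 2-fold above it, which 37.3% of the genes did. Measurement on both arrays needed a supernatant signal well above background, of which the lowest was 8.75. With exosome signals of 66.0 (ACTA2), 24.0 (MYH11), 42.8 and 42.6 (MYLK), this need alone set all 3 below the median gene. The counts against the median gene are therefore not read as a result. The same holds for any probe of the lists below whose exosome signal was under 11.3 times that lowest supernatant signal. Before scaling, the differences of ACTA2 and MYH11 were smaller than the SD of 1.73 between different probes of 1 gene, and so was that of MYLK. The direction of ACTA2 and MYH11 depended on the scaling: scaled to the 75th percentile of the probes detected on both arrays, the log2 differences were -4.49 for ACTA2, -4.70 for MYH11 and -6.97 for MYLK, and scaled to the spike-in probes they were -1.12 for ACTA2, -1.34 for MYH11 and -3.61 for MYLK. MYLK was higher in the supernatant under each of the 7 scalings and corrections compared.

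**Figure D3:**
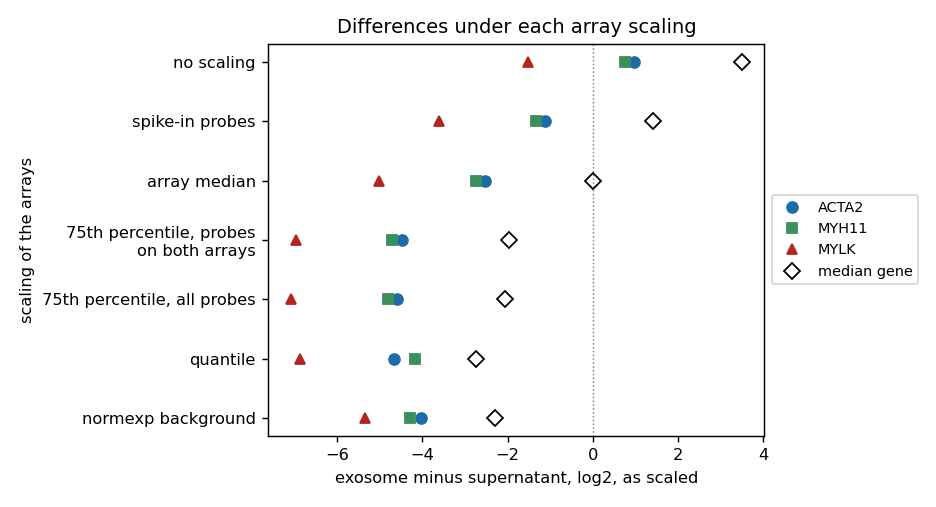
Log2 difference, exosome minus supernatant, of ACTA2, MYH11, MYLK and the median gene (horizontal axis) under 7 ways to scale or correct the arrays (vertical axis). ACTA2 and MYH11 lie right of 0 with no scaling and left of it otherwise, MYLK lies left of 0 throughout, and all 3 lie left of the median gene in every row.

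The genes of proteins that sit on the thin filament were detected by 1 of their 4 probes. TAGLN, or transgelin, an actin-bundling protein of smooth muscle, read 23.9 on the exosome array against 6.78 on the supernatant array at position 975, at least 2.73-fold brighter on the exosome array before scaling. The TAGLN probe at position 475 was detected on neither array, with 2.30 on the exosome array against 1.87 on the supernatant array. CNN1, calponin, which restrains the myosin motor, was detected on neither array by either probe: the exosome signals were 2.37 and 2.85, and the supernatant signals were 1.83 and 2.32.

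OXTR, the receptor through which oxytocin triggers milk ejection, was detected on the exosome array by 1 of 2 probes. The probe at position 1723 read 23.6 on the exosome array against 1.88 on the supernatant array, at least 2.69-fold brighter on the exosome array before scaling. The probe at position 2146 read 2.59 on the exosome array against 3.27 on the supernatant array and was detected on neither. TP63, the transcription factor that maintains basal epithelial cells, has a single probe, which read 2.31 on the exosome array against 1.87 on the supernatant array, below detection on both.

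ITGA6 is an integrin alpha chain that binds laminin in the basement membrane. All 3 of its probes were well above background there, with 135 at position 1181, 50.7 at position 3621 and 24.1 at position 3983, while the same probes read 2.07, 2.28 and 1.93 on the supernatant array and were not detected. The differences were at least 15.4-fold, 5.79-fold and 2.75-fold before scaling, which average to at least 6.26-fold for the gene. The bounds of MYL9, TAGLN and OXTR and the averaged bound of ITGA6 are smaller than the 11.3-fold of the median gene. Relative to it neither a direction nor a fold can be given for these genes. The ITGA6 probe at position 1181 taken alone lay at least 1.36-fold to the exosome side of the median gene. ITGA6 is not restricted to myoepithelial cells in the mammary gland.

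The calls of several members rested on single probes and on signals near the limit. Of 8 members with more than 1 probe, 7 were detected on the exosome array, 5 of them by exactly 1 probe and 2, MYLK and ITGA6, by every probe. Among all genes with several probes that were detected there, 26.4% were detected by exactly 1 and 57.9% by all. On the supernatant array MYLK was detected by both probes and MYH11 by 1 of 4, and 5.37% of the genes with several probes that were detected there were detected by all. The 2 MYLK probes overlap by 53 of 60 bases, so detection of MYLK by every probe is not agreement between separate probes. Of the 11 member probes detected on the exosome array, 5 (those for MYL9, OXTR, TAGLN, MYH11 and the third of ITGA6) had signals between 23.0 and 24.1, and the 11 not detected lay between 2.30 and 6.74. Under a stricter limit of 4 times the lowest well-above-background signal, 3 members were detected on the exosome array (ACTA2, ACTG2 and ITGA6) against 1 on the supernatant array (MYLK).

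The probes had some sequence features in common. They held between 21 and 33 G or C bases of 60, and none had a run of 5 G. Among the 22 probes 5 have coordinates that span more than 100 bases of the genome, so their 60 bases come from separate blocks: ACTG2 at 865, CNN1 at 282, MYH11 at 714 and 1250, and TAGLN at 475. None of these 5 was detected on either array, while 11 of the other 17 were detected on the exosome array. Over the whole array the exosome share well above background was 52.2% for probes with such gapped coordinates and 60.7% for those with shorter ones. The supernatant shares were 6.9% for gapped and 14.3% for shorter coordinates. The part of probe placement in the members' calls was not tested.

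Upstream of the kinase, the pathway runs from the oxytocin receptor to calcium. Of 15 genes of that list on the array, 11 were detected on the exosome array against 8 on the supernatant array. All named genes had shares of 69.2% for exosome and 22.8% for supernatant. The 8 measured on both had a median of -0.69 relative to the median gene. GNA11, the G protein alpha subunit that couples such receptors to phospholipase C, read 1146 on the exosome array against 41.2 on the supernatant array and lay at 1.30. ATP2A2, the pump that returns calcium to the endoplasmic reticulum, was brighter on the supernatant array before scaling by the 1 of its 4 probes measured on both, with a log2 difference of -1.15, or -4.65 relative to the median gene. The need for a supernatant call alone set that dim probe below the median gene. The brightest ATP2A2 probe on the exosome array read 112 there against 1.93 on the supernatant array, where it was not detected, at least 12.8-fold brighter on the exosome array before scaling. Phospholipases PLCB1, PLCB2 and PLCB4 and the calcium channel ITPR3 were detected on neither array.

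Of 16 other contractile genes of smooth muscle, 11 were detected on the exosome array against 5 on the supernatant array, near the shares of all named genes. TPM1, a tropomyosin, was detected on the exosome array by 7 of its 9 probes, which disagreed. The brightest read 3008 on the exosome array against 3.09 on the supernatant array, where it was not detected, at least 344-fold brighter on the exosome array before scaling, while the 1 probe measured on both arrays lay at -3.76 relative to the median gene. The need for a supernatant call alone set this dimmer probe below the median gene. CSRP1, a LIM protein of smooth muscle, lay at 3.60. TPM2, LMOD1, SYNPO2, DES and TNS1 were detected on neither array. Of 8 genes of the SRF and myocardin programme, which drives smooth muscle transcription, 5 were detected on the exosome array against 1 on the supernatant array. The shares of all named genes were 69.2% for exosome and 22.8% for supernatant. SRF itself read 15.5 on the exosome array against 1.90 on the supernatant array, and its coactivator MYOCD read 16.8 on the exosome array against 7.45 on the supernatant array, each by 1 of 2 probes and neither detected on the supernatant array.

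The list of non-muscle counterparts was detected throughout on the exosome array. Besides relatives of the members it holds other actin-binding genes (ACTN4, TPM3, TPM4, CFL1, PFN1, TMSB4X and TMSB10). It also holds MYL6, which is counted among the other smooth muscle genes as well. All 19 genes of the list were detected there and 11 on the supernatant array, with a median of 1.50 relative to the median gene. These values therefore do not describe relatives of the members alone. For all named genes the shares were 69.2% for exosome and 22.8% for supernatant. ACTB lay at 7.05 by the 1 of its 4 probes measured on both arrays, and ACTG1, the cytoplasmic gamma actin, was detected by all 6 probes on the exosome array and by none on the supernatant array. The light chains MYL12A and MYL12B, near relatives of MYL9, were each detected by their single probe on the exosome array alone, with 5560 for MYL12A and 177 for MYL12B on the exosome array, against 1.96 for MYL12A and 1.98 for MYL12B on the supernatant array. MYH9, the non-muscle myosin heavy chain, lay at -1.50 relative to the median gene by the 1 of its 4 probes measured on both arrays. That probe read 95.6 on the exosome array against 23.9 on the supernatant array. At that exosome signal the need for a supernatant call alone set MYH9 below the median gene.

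**Figure D4:**
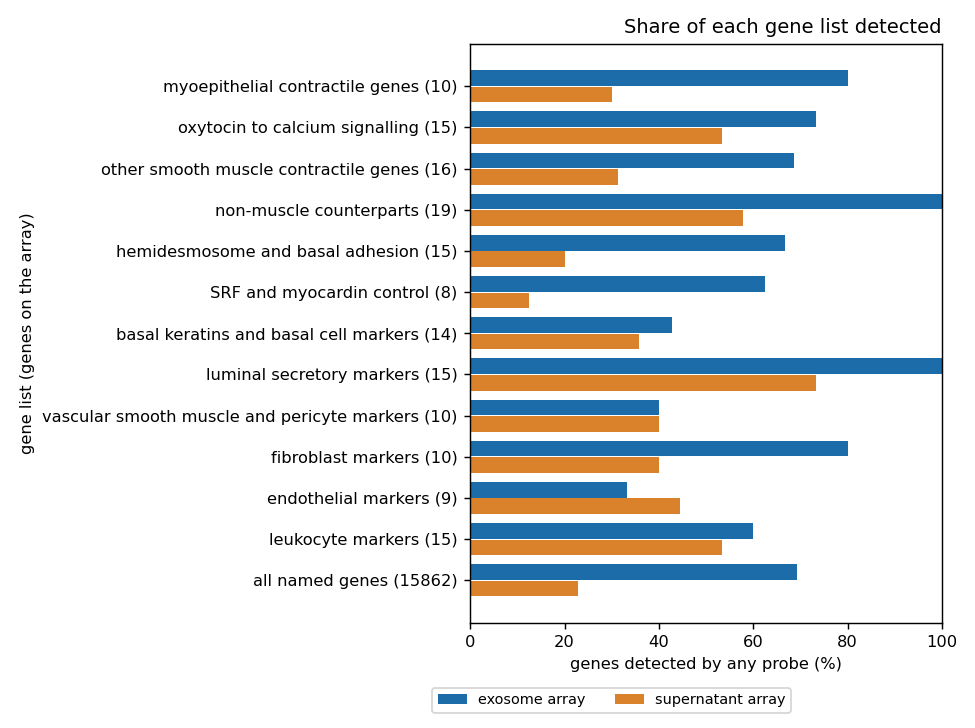
Share of the genes of each list described (number of genes on the array in brackets) detected by any probe on the exosome array (blue, upper bar) and the supernatant array (orange, lower bar), in percent, with all named genes at the bottom. The non-muscle counterparts and the luminal secretory markers reach 100% on the exosome array, and the myoepithelial contractile genes reach 80% on the exosome array against 30% on the supernatant array.

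The basal adhesion genes that accompany ITGA6 were detected for 10 of 15 on the exosome array against 3 on the supernatant array. All named genes had shares of 69.2% for exosome and 22.8% for supernatant. ITGB4, which pairs with ITGA6 in hemidesmosomes, was detected by 3 of 6 probes on the exosome array, the brightest at 37.2 against 1.84 on the supernatant array. ITGB1, its other partner, read 144 on the exosome array against 2.10 on the supernatant array. ITGA2, a collagen receptor chain, was detected on the supernatant array alone by its single probe. That probe read 8.83 on the exosome array against 15.4 on the supernatant array, both near the lowest called signals. COL17A1, a hemidesmosome collagen, was detected on neither array.

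The defining markers of the cell types that could supply these transcripts were read in the same way. Of 14 basal keratins and basal cell markers, 6 were detected on the exosome array against 5 on the supernatant array, where all named genes had shares of 69.2% for exosome and 22.8% for supernatant. The 4 measured on both had a median of 0.59 relative to the median gene. KRT5 was detected on neither array, with 12.2 on the exosome array against 7.40 on the supernatant array by its brighter probe. KRT14, its usual partner, was detected on both arrays by 1 of 2 probes, with 490 on the exosome array against 56.1 on the supernatant array. KRT17 was detected by both probes on the exosome array alone. KRT15, another basal keratin, was detected by all 4 probes on the exosome array, the brightest reading 3515 on the exosome array against 16.96 on the supernatant array, and lay at 4.20 relative to the median gene. NGFR, a neurotrophin receptor of basal cells, lay at 1.56 and CDH3, the placental cadherin, at -1.42 relative to the median gene, each by 1 of 3 probes. VIM was detected on the exosome array alone. CAV1 was called on the supernatant array alone, by 1 of 5 probes, which read 12.7 on the exosome array against 11.7 on the supernatant array. That exosome signal lay above the lowest one called there, 11.3, but lacked the call. MME, THY1, EGFR, JAG1, SPARC and TP73 were, like KRT5, detected on neither array. All 15 luminal secretory markers were detected on the exosome array against 11 on the supernatant array, and those 11 had a median of 6.78 relative to the median gene.

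Markers of other contractile or connective cells were counted in the same way. Over all named genes the shares were 69.2% on the exosome array against 22.8% on the supernatant array. Of 10 vascular smooth muscle and pericyte markers, 4 were detected on the exosome array against 4 on the supernatant array, and the pericyte markers PDGFRB and RGS5 and the muscle filament gene DES were on neither. Counts for fibroblast markers were 8 of 10 on the exosome array against 4 on the supernatant array, for endothelial markers 3 of 9 on the exosome array against 4 on the supernatant array, and for leukocyte markers 9 of 15 on the exosome array against 8 on the supernatant array. MCAM, an adhesion molecule of vascular smooth muscle and endothelium, was 1.25-fold brighter on the supernatant array before scaling, -3.82 relative to the median gene. The other vascular markers measured on both were brighter on the exosome array before scaling. Relative to the median gene they lay at 0.98 for KCNJ8, a potassium channel subunit, -1.14 for CSPG4 and -1.57 for NDUFA4L2. The median of the 4 was -1.36. With exosome signals of 64.7 (CSPG4) and 92.1 (NDUFA4L2), the need for a supernatant call alone set both below the median gene. The median of the 4 is therefore not read as a result. The part of any of these cell types in the signals of the 10 genes was not tested.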

How the data were processed

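RNA pools from 2 whey fractions were measured on 1 array each, with no replicates. As deposited, the authors' intensity values are processed signals from version 10.7.3.1 of Agilent Feature Extraction (per the file headers), background-subtracted and not scaled between arrays. A log2 table deposited by the authors equalled the log2 of these signals within 1.9e-06 over 43602 probes. The software's flags were used as deposited, while the deposited p-values of each spot against background were not used. Further steps by the authors were not given in the sources used.

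Control and outlier spots were left out and spots of 1 probe averaged, leaving 43652 probes. Each array was scaled on the log2 scale to the 75th percentile of the probes well above background on both arrays, since on the supernatant array the 75th percentile of all probes, 5.24, lay below the detection limit. Probes detected on both arrays were averaged to give the difference of a gene. Where only the exosome array detected a gene, its signal was divided by the lowest detected supernatant signal, or by the probe's own if higher, to give an at-least fold, averaged over detected probes. The size call was 2-fold. Gene names came from the array files, updated by accession through the gene table of assembly ARS-UCD2.0 for 26740 probes.

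All 10 members are named with every probe. From each other list the rule names the 2 brightest and 2 dimmest genes detected on the exosome array, up to 4 detected on the supernatant array, and fixed partner genes. Genes named as detected on neither array, other than members and KRT5, were added after their values were seen. A few of the named genes and 1 list are not reported here. The members and the 12 other lists were chosen with earlier results of these data known. Python 3.11.15, pandas 2.3.3, numpy 2.4.6, R 4.3.3 and limma 3.58.1 were used. Alternatives were other scalings, normexp background correction with an offset of 50, other filters on dim probes, the brightest probe per gene and outlier spots kept. The number of arrays limits the precision.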

Additional observations from a re-analysis of the deposited data

How the results depend on the processing

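Members detected numbered 8 on the exosome array against 3 on the supernatant array. With the stricter limit these were 3 on the exosome array against 1 on the supernatant array. The scanner software's weaker flag gave 9 on the exosome array against 6 on the supernatant array. Requiring every probe of a gene gave 3 on the exosome array against 2 on the supernatant array. Those 2 were ACTA2, with 1 member probe, and MYLK, whose 2 probes overlap. For the 156 genes of the other lists, 111 were detected on the exosome array against 67 on the supernatant array. Requiring every probe left 63 on the exosome array against 14 on the supernatant array, the weaker flag gave 126 and the stricter limit 28 on the supernatant array. The median of the members relative to the median gene, -2.75, was -1.94 with quantile normalization, -2.01 with normexp background correction and -2.36 with the weaker flag over 5 members. It was -1.89 with no filter over 10 members, of which 8 lay at least 2-fold below and 1 at least 2-fold above the median gene. That setting took in all 15862 named genes, with CNN1 and TP63 among them though detected on neither array. The share of all genes was not computed there, so the 8 are not read as a result. The stricter limit left no member measured on both arrays. With no scaling the differences of ACTA2 and MYH11 reversed to 0.97 and 0.75. ACTA2, MYH11 and MYLK lay at least 2-fold below the median gene under each alternative that measured them. In the main setting the filter on dim probes alone set all 3 below it. The cause of these shifts was not tested. No paired analysis was possible because each fraction has 1 array. Signal over background limits the supernatant array most, where 18 of 22 member probes gave no call.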

Other observations

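Several relatives of the members were read after their values were seen and are given without any explanation. OXT, the gene of the hormone oxytocin, which is made in the hypothalamus, was well above background on both arrays with 158 on the exosome array against 34.2 on the supernatant array, a log2 difference of 2.21. ACTC1, the cardiac alpha actin, read 90.5 on the exosome array against 27.8 on the supernatant array by 1 of 2 probes. MYL3, a light chain of slow and cardiac muscle, read 116 on the exosome array against 31.0 on the supernatant array. MYLK4, a relative of MYLK, read 296 on the exosome array against 5.82 on the supernatant array, where it was not well above background.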
